A study of Mus musculus with 6 samples.

Results

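The genes described here are 48 genes of macrophages and related myeloid cells, measured in the atria of obese and lean mice. They and the further gene lists below were chosen by name with earlier results of these data known. All 48 had a row among the 43432 genes of the deposited table. A mean of at least 10 normalized counts over the 6 samples was required for a test, which 46 of the 48 and 15275 genes in all reached. The 2 members below it were Marco and Clec4e.

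Wild-type C57/Bl6J mice received a high-fat diet (HFD) or a control chow from 6 weeks of age for 10 weeks, and RNA of the right and left atria was sequenced. The HFD group is called obese and the control group lean, with 3 samples in each. The sources used here do not state whether a sample was 1 animal, so each p-value measures the spread between these samples. The labels contradict each other, since the treatment field names the opposite diet to the title in all 6 samples, and the titles, which the column names of the table match, were followed. If the treatment field were right, every direction below would be turned.

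Macrophages live in the heart throughout life as resident cells that clear debris and dying cells, and further macrophages arise from monocytes that enter from the blood. Resident cardiac macrophages are known for scavenger receptors such as Cd163, Mrc1 and Lyve1, whereas monocytes carry Ccr2 and Ly6c2. In fat tissue of obese animals, macrophages that take up lipid are known to express Trem2, Gpnmb, Lgals3 and Spp1.

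The atria contained 15874251 to 28971508 reads assigned to genes per sample, and lean sample 2 was the deepest, with 30.7% of its reads on mitochondrial genes against 19.5% to 24.4% in the others. The values are the authors' normalized counts, meaning reads divided by a factor that evens out depth, and 3 reads corresponded to 2.05 to 3.41 normalized counts, a limit for counting error only. The tissue label held, as the atrial myocyte genes Nppa, Myl7 and Sln were measured at high counts in all 6 samples, the lowest value being 19693 normalized counts of Sln in obese sample 2. The 7 atrial myocyte markers summed to 685706, 805034 and 1273274 normalized counts in obese samples 1, 2 and 3 and to 1126027, 1065436 and 1076983 in lean samples 1, 2 and 3. Obese samples 1 and 2 thus had the lowest and obese sample 3 the highest myocyte sum of the 6. In RNA of whole tissue, fewer cells of a type and less RNA per cell cannot be told apart.

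In obese atria 5 members rose and none fell by the test across all genes (limma on log2(normalized count + 1), Benjamini-Hochberg adjusted p under 0.05). The 5 were Ms4a6c, Lyve1, Ctss, Cd163 and Siglec1, whose means were 1.84 to 2.54 times those of lean atria. They made up 10.9% of the 46 members tested, against 0.484% of all genes tested that were called higher. Among all genes 0.262% were called lower. At an unadjusted p under 0.05, 16 members were higher and 1, Clec7a, was lower, against 6.66% and 5.55% of all genes tested. All 3 obese values lay above all 3 lean values for 17 members, 37.0% of those tested, and below them for Clec7a, against 8.86% and 9.17% of all genes. The log2 fold change was above 0 for 39 members and below 0 for 7, while 50.8% of all genes had one above 0, and its median was 0.37 over the members and 0.00 over all genes tested. With 3 samples in each group the smallest p of a two-sided exact permutation test is 0.1, which was the value for every member without overlap.

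The call of these 5 depended on the model used and on which samples were included. When limma used a single prior spread for genes of all levels (no variance trend), it called 0 members, with 14 higher at an unadjusted p under 0.05, against 5.71% of all genes. The reported fit called 0 members after lean sample 2 or lean sample 3 was left out, with 15 and 12 higher at an unadjusted p under 0.05, against 4.69% and 6.68% of all genes. It called Ctss without obese sample 2, and Lyve1 and Ms4a6c without obese sample 1. Lyve1 and Fcgr2b were called without lean sample 1, and all 5 without obese sample 3. Over all genes tested, 14, 32, 37 and 202 genes were called higher in these fits, in that order, against 74 in the reported fit. Without a variance trend 0 genes were called, and without lean sample 2 or lean sample 3 limma called 10 and 13 genes higher. A count model on the recovered reads (DESeq2) called 9 members, namely the 5 and Fcgr3, Mpeg1, C5ar1 and Clec4d, against 1.91% of all genes. It called no member lower, against 1.17% of all genes.

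**Figure D1:**
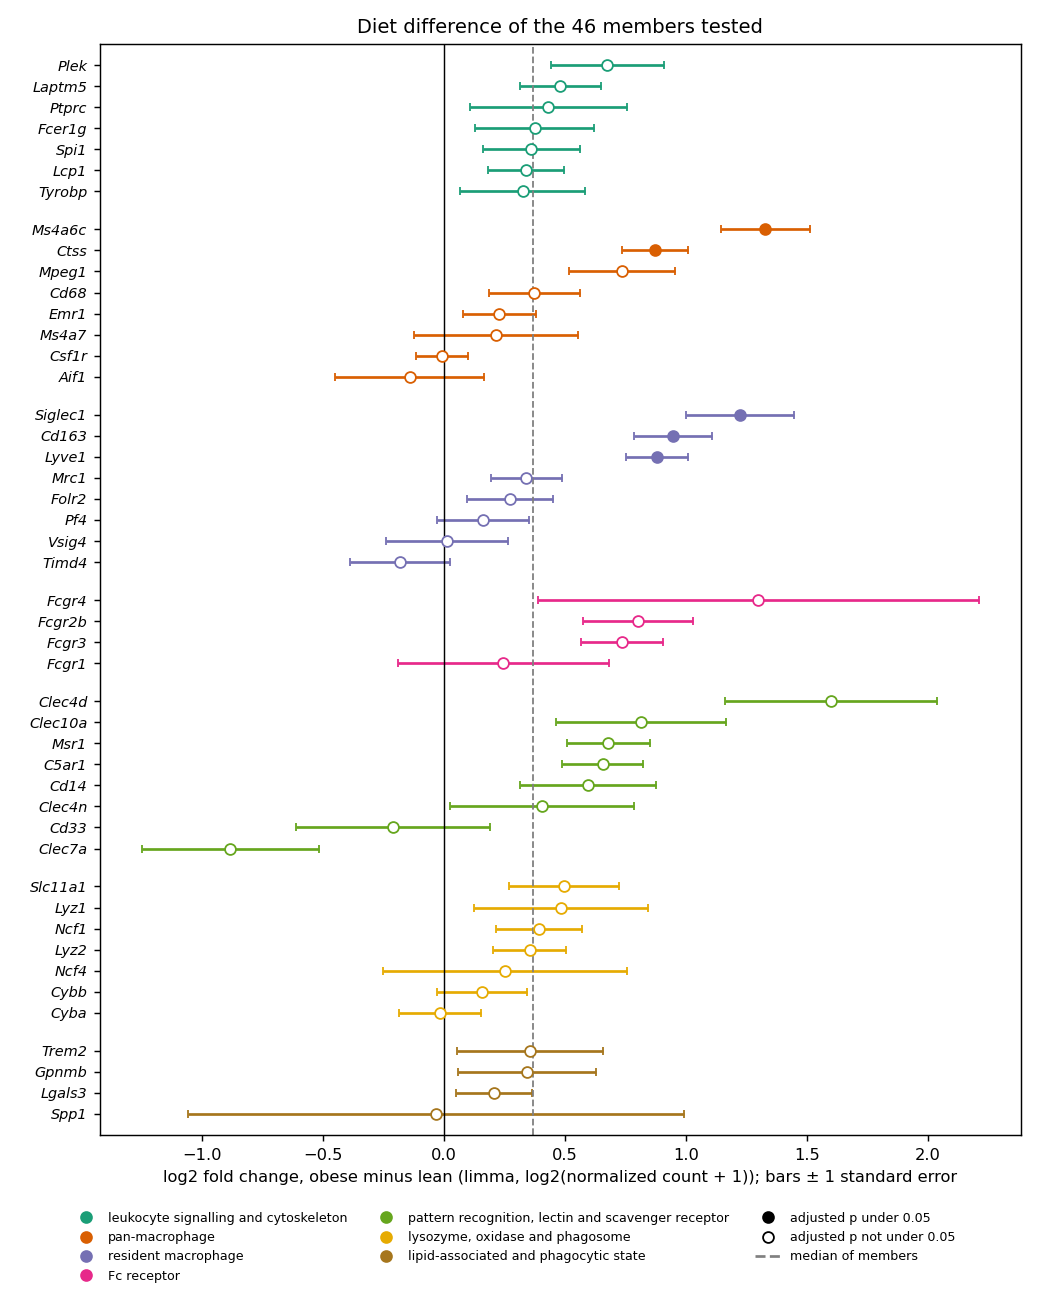
Log2 fold change of each of the 46 members tested, obese minus lean, by role. Points are limma estimates on log2(normalized count + 1), bars are 1 standard error to each side, filled points mark an adjusted p under 0.05 and the dashed line is the members' median of 0.37. The 5 filled points are Ms4a6c and Ctss among general macrophage genes and Siglec1, Cd163 and Lyve1 among genes of resident macrophages.

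Of the 8 genes of resident macrophages, Lyve1, Cd163 and Siglec1 rose. The other 5, Mrc1, Folr2, Pf4, Vsig4 and Timd4, did not pass the test and had log2 fold changes from -0.18 to 0.34, and differences between genes of the group were not tested. The summed normalized counts of the 8 were 5341, 5719 and 4275 in obese samples 1, 2 and 3 and 3583, 3402 and 3262 in lean samples 1, 2 and 3, without overlap.

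Lyve1 encodes a receptor for hyaluronan that marks resident macrophages along vessels and also lymphatic endothelium. The gene lies on the minus strand of chr7:110850607-110862953 (GRCm38). It had 1575, 1839.8 and 1480.0 normalized counts in obese samples 1, 2 and 3 and 966, 893 and 794 in lean samples 1, 2 and 3. Every obese value lay well above the highest lean value. Its log2 fold change was 0.88 (standard error 0.13, limma with Benjamini-Hochberg adjusted p = 0.0172). It stayed between 0.79 and 0.95 when each sample was left out in turn, and the call held in 3 of these 6 fits. Because Lyve1 is also a lymphatic gene, Prox1, Flt4, Pdpn, Ccl21a and Reln were added after the values were seen. These 5 lymphatic genes summed to 1906, 2097 and 1939 normalized counts in obese and 1851, 2069 and 1945 in lean samples 1, 2 and 3. The sums of the groups overlapped, and none of the 5 passed the test. Prox1 had the highest counts of the 5 and weighed most in the sums. Flt4 had a log2 fold change of 0.39 (standard error 0.16, limma adjusted p = 0.377) and Pdpn 0.10. Prox1, Ccl21a and Reln had -0.03, -0.16 and -0.36. Whether lymphatic cells had a part in the Lyve1 difference was not tested.

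Cd163, the receptor through which macrophages take up complexes of haemoglobin and haptoglobin, had 1041, 1273 and 803 normalized counts in obese samples 1, 2 and 3. In lean samples 1, 2 and 3 it had 544, 542 and 502, so the lean samples lay close together and the obese samples apart. The log2 fold change was 0.95 (standard error 0.16, limma with Benjamini-Hochberg adjusted p = 0.0310). Siglec1, also called sialoadhesin or CD169, binds sialic acid on other cells. It had 182, 235 and 169 normalized counts in obese samples and 67.2, 78.7 and 105 in lean samples. Lean sample 3 was the highest lean value and still below the lowest obese value. Its log2 fold change was 1.22 (standard error 0.22, limma with Benjamini-Hochberg adjusted p = 0.0426), and the calls of Cd163 and Siglec1 each held in 1 of the 6 fits with a sample left out. Lyve1, Cd163 and Siglec1 were all highest in obese sample 2 and lowest of the obese in sample 3.

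Mrc1, the mannose receptor CD206, had 954, 1152 and 811 normalized counts in obese and 703, 827 and 755 in lean samples 1, 2 and 3. Obese sample 3 fell below lean sample 2, so the groups overlapped, and the log2 fold change was 0.34 (standard error 0.15, limma adjusted p = 0.382). Timd4, a receptor for phosphatidylserine on dying cells that marks long-lived resident macrophages, had 89.4, 92.8 and 78.4 normalized counts in obese and 90.7, 93.8 and 113 in lean samples (log2 fold change -0.18, standard error 0.21). Folr2, a folate receptor, had 512, 359 and 395 in obese and 409, 344 and 292 in lean samples (log2 fold change 0.27, standard error 0.18). Of its exon sequence, cut into all words of 50 bases (the read length), 52.6% also lies in Gm10602, so its reads are uncertain. Vsig4, a complement receptor of resident macrophages, was picked for its spread after its values were seen. It had 697, 532 and 303 normalized counts in obese samples 1, 2 and 3 and 515, 438 and 485 in lean samples, with a log2 fold change of 0.01 (standard error 0.25). Its highest and its lowest value were both in obese samples.

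**Figure D2:**
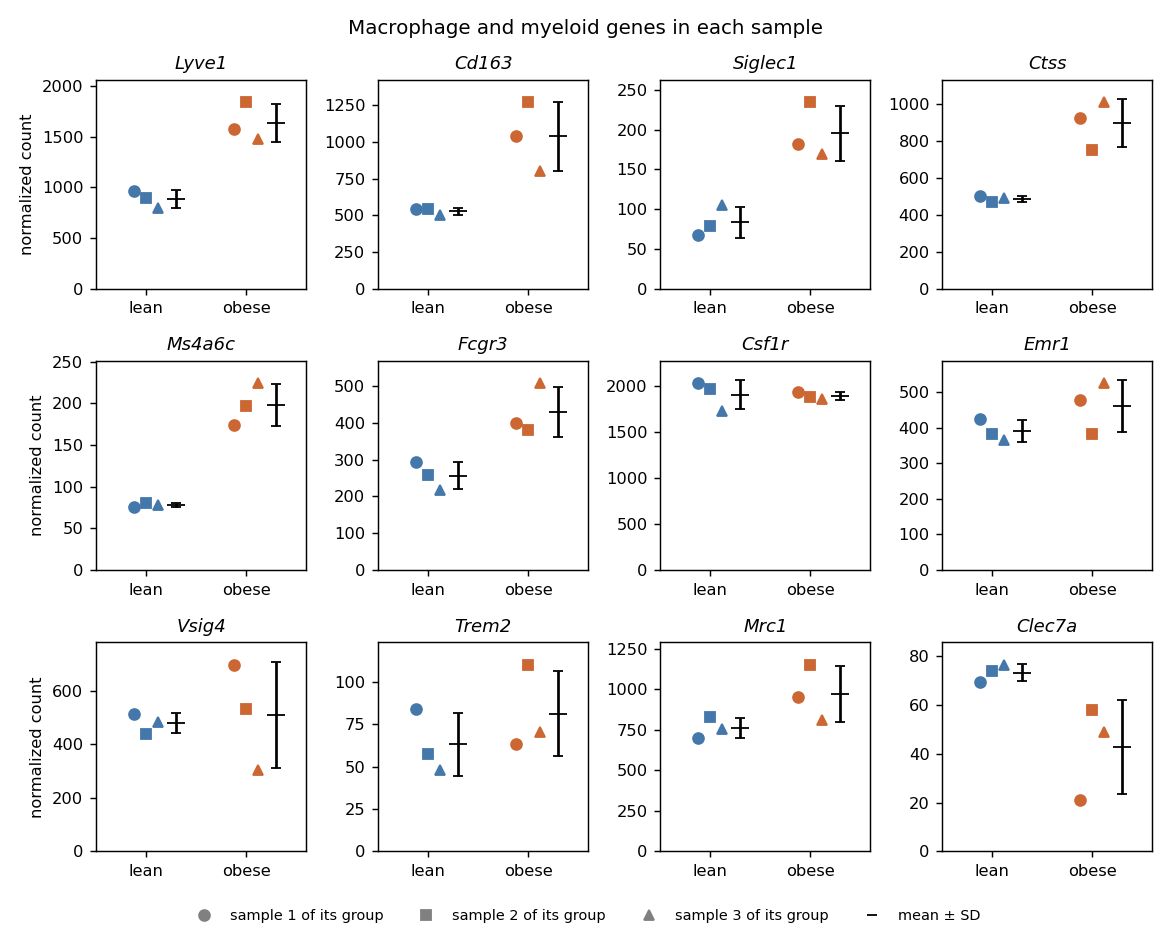
Normalized counts of 12 members in each of the 3 lean and 3 obese samples, each panel on its own linear axis from 0. Symbols are samples, and the horizontal mark with its bar is the group mean with the SD. Lyve1, Cd163, Siglec1, Ctss, Ms4a6c and Fcgr3 have all obese samples above all lean samples, Clec7a all below, and in Csf1r, Emr1, Vsig4, Trem2 and Mrc1 the groups overlap.

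Among the 8 general macrophage genes, 2 rose, Ms4a6c and Ctss. Ms4a6c encodes a membrane protein of the four-span MS4A family found on macrophages and monocytes. It had 174, 197 and 224 normalized counts in obese samples 1, 2 and 3 and 76.1, 80.1 and 77.6 in lean samples 1, 2 and 3. The lean samples were nearly equal, and each obese sample had over 2 times as much. The log2 fold change was 1.33 (standard error 0.18, limma with Benjamini-Hochberg adjusted p = 0.0140), the smallest p of the members, and the call held in 2 of the 6 fits with a sample left out. The gene lies on the plus strand of chr19:11469366-11482192, and 51.4% of its 50-base words also lie in BE692007, a transcript of the opposite strand. How the counting used strand is not given in the sources used here. BE692007 itself had 27.1, 30.6 and 56.8 normalized counts in obese and 14.6, 25.3 and 24.05 in lean samples (log2 fold change 0.77, limma adjusted p = 0.506).

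Ctss encodes cathepsin S, a protease of the lysosome that prepares antigen for presentation on MHC class II. It had 922, 752 and 1007 normalized counts in obese samples 1, 2 and 3 and 500.5, 467 and 487 in lean samples 1, 2 and 3. All obese samples lay above the narrow range of the lean samples. The log2 fold change was 0.87 (standard error 0.14, limma with Benjamini-Hochberg adjusted p = 0.0234), and the call held in 2 of the 6 fits with a sample left out. The gene lies on the plus strand of chr3:95526786-95556403 and shared no 50-base word with another gene.

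The bases before the gene start are shown for the members that rose and have an entry among the RefSeq promoters of GRCm38.p6, because these genes rose. PU.1, encoded by the member Spi1, is the factor that macrophages depend on, and its core motif is GAGGAA, written in capitals where it occurs. The 250 bases before the start of Ms4a6c (chr19:11469118-11469367, plus strand), Ctss (chr3:95526536-95526785, plus strand) and Cd163 (chr6:124304401-124304650, plus strand) read 5′ to 3′ as follows.
Ms4a6c: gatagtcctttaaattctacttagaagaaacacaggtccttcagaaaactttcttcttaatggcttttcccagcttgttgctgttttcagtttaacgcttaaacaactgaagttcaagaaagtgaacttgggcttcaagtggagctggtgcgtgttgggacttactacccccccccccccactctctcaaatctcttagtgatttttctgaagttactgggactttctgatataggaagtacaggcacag
Ctss: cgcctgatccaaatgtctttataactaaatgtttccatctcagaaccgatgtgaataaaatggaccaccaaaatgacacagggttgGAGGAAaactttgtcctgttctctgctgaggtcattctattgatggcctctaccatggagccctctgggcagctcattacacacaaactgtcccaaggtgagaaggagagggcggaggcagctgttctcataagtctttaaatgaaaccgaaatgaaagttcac
Cd163: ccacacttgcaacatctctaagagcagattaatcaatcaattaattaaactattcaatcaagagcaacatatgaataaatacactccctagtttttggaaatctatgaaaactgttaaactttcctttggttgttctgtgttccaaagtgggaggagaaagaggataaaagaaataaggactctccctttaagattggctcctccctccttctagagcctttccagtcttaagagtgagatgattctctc
The motif occurred 1 time before Ctss, and neither GAGGAA nor its reverse complement TTCCTC occurred before Ms4a6c or Cd163. Over windows from 250 bases before to 50 after a start, either letter string occurred in 22 of the 37 members with an entry (59.5%) and in 31.3% of all 27025 genes. The longer form GAGGAAGT, on either strand, occurred in 4 of the 37 members, Ctss, Pf4, Fcgr4 and Spp1, and in 3.69% of all genes. A match of letters is a description of these windows and not a site of binding.

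Csf1r encodes the receptor for the growth factors Csf1 and Il34, on which macrophages depend, and it had the highest normalized counts of the general macrophage genes. It had 1939, 1876 and 1858 normalized counts in obese samples 1, 2 and 3 and 2028, 1964 and 1728 in lean samples 1, 2 and 3. The groups overlapped, and it differed little between the diets (log2 fold change -0.01, standard error 0.11, limma adjusted p = 0.987). Some of its 50-base words, 14.3%, also lie in Hmgxb3. Cd68, a glycoprotein of lysosomes, had 357, 299.8 and 285 normalized counts in obese and 281, 268 and 186 in lean samples. Its groups did not overlap, but obese sample 3 and lean sample 1 nearly met (log2 fold change 0.37, standard error 0.19, limma adjusted p = 0.465). Emr1, the older name of Adgre1 that encodes the surface antigen F4/80, had 476, 381 and 524 in obese and 423, 382 and 365 in lean samples (log2 fold change 0.23, standard error 0.15). It was named after its values were seen, as a common macrophage marker. Aif1, which encodes the actin-binding protein IBA1, had 50.2, 30.6 and 56.8 in obese and 50.4, 49.96 and 47.0 in lean samples (log2 fold change -0.14, standard error 0.31).

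Mpeg1, which encodes the pore-forming protein perforin-2, had 374, 505 and 713 normalized counts in obese samples 1, 2 and 3 and 268, 356 and 305 in lean samples 1, 2 and 3. The lowest obese value was close to the highest lean value. Its log2 fold change was 0.74 (standard error 0.22) and missed the threshold in limma (adjusted p = 0.175) while passing it in DESeq2 (adjusted p = 0.0276). The remaining gene of the group, Ms4a7, had overlapping groups.

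The 4 receptors for the constant part of IgG had a median log2 fold change of 0.77, and none passed the test. Fcgr3, an activating receptor of low affinity, had 399, 380.4 and 507 normalized counts in obese samples 1, 2 and 3 and 294, 257 and 219 in lean samples 1, 2 and 3. The groups did not overlap, and the log2 fold change was 0.74 (standard error 0.17, limma adjusted p = 0.0821, DESeq2 adjusted p = 0.00924). Fcgr2b, the inhibitory receptor of the family, had 379.7, 364 and 331 in obese and 307, 164 and 171 in lean samples. Lean sample 1 stood well above the other lean samples and below all obese samples (log2 fold change 0.80, standard error 0.23, limma adjusted p = 0.154). Of the 50-base words of Fcgr3, 9.58% lie also in another gene, mainly Fcgr2b, so a part of their reads is uncertain. Fcgr4, which was named for 1 high sample after its values were seen, had 21.1, 17.3 and 122 in obese and 3.36, 49.3 and 14.2 in lean samples. Fcgr1, the receptor of high affinity, likewise had its highest value, 143, in obese sample 3, and the other samples of both diets lay between 40.4 and 84.0. Without obese sample 3 its log2 fold change was -0.27 in place of 0.25.

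Receptors for microbial and damaged material comprised 10 members, of which 8 were tested. None passed the test, Cd14, Msr1, Clec4d and C5ar1 had all obese above all lean values, Clec7a had all below, and the median log2 fold change was 0.63. Msr1, the scavenger receptor A of macrophages, had 174, 181 and 159 normalized counts in obese samples 1, 2 and 3 and 112, 103 and 104 in lean samples 1, 2 and 3. The samples within each diet were close together, and the groups were apart (log2 fold change 0.68, standard error 0.17, limma adjusted p = 0.110). C5ar1, the receptor for the complement fragment C5a, had 290.3, 289.6 and 348 in obese and 212, 214 and 164 in lean samples. Its groups were also apart (log2 fold change 0.66, standard error 0.17, limma adjusted p = 0.112, DESeq2 adjusted p = 0.0445). Cd14, the co-receptor for lipopolysaccharide, had 158, 159 and 288 in obese and 151, 152 and 90.7 in lean samples. Only obese sample 3 stood high, and the other obese samples lay just above lean samples 1 and 2 (log2 fold change 0.60, standard error 0.28).

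None of the C-type lectin receptors among these passed the test, and their log2 fold changes lay on both sides of 0. Clec4d had the highest log2 fold change of all members tested, 1.601 (standard error 0.44, limma adjusted p = 0.140, DESeq2 adjusted p = 0.0426). It encodes a receptor for mycobacterial glycolipid that signals through Fcer1g. It had 36.2, 49.97 and 67.0 normalized counts in obese and 25.8, 9.58 and 15.3 in lean samples, so few reads stood behind the difference. Clec7a encodes dectin-1, the receptor for fungal beta-glucan. It had 21.1, 58.1 and 48.8 normalized counts in obese and 69.4, 73.9 and 76.5 in lean samples. Every obese value lay below every lean value, with obese sample 1 lowest by far. Its log2 fold change was -0.88 (standard error 0.37, limma adjusted p = 0.365), and -0.45 without obese sample 1. GENCODE lists Clec7a as a polymorphic pseudogene, a class for genes that are intact in only some strains. The bases before its start (chr6:129472780-129473029, minus strand) are shown because it was the one member with every obese value below every lean value, again with GAGGAA in capitals, which occurred 1 time.
Clec7a: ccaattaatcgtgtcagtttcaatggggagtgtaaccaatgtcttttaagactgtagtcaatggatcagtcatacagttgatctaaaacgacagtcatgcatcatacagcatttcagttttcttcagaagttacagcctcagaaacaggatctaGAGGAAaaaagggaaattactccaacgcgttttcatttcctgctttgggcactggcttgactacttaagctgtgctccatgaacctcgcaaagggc
Clec10a, the lectin MGL1 of macrophages and dendritic cells, had 498, 259 and 158 normalized counts in obese and 171, 184 and 118 in lean samples. Obese sample 1 stood far above the other obese samples, and obese sample 3 lay within the lean range (log2 fold change 0.81, standard error 0.35, limma adjusted p = 0.385). Of its 50-base words, 9.02% are shared, mainly with Mgl2. Cd33, a receptor for sialic acid, had 24.1, 49.0 and 21.6 in obese and 28.0, 32.9 and 43.7 in lean samples (log2 fold change -0.21, standard error 0.40). Clec4n was tested and overlapped. Marco had at most 5.02 and Clec4e at most 7.95 normalized counts in any sample, which left both untested, and 3 and 2 of the 6 samples held no read of them. The members nearest above the minimum mean of 10 were Spp1 with 14.3 and Cd33 with 33.2.

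The 7 genes of the lysozyme, oxidase and phagosome group had a median log2 fold change of 0.35 and none passed the test. Lyz2, which encodes the lysozyme of macrophages, was the most abundant member per length, with a mean of 3365 normalized counts per kb of exon. Ctss was next with 508, followed by Lgals3 with 477 and Lyve1 with 431 normalized counts per kb. Lyz2 had 5705, 4294 and 4887 normalized counts in obese samples 1, 2 and 3 and 4418, 4075 and 3188 in lean samples 1, 2 and 3. Obese sample 2 lay between lean samples 1 and 2 (log2 fold change 0.35, standard error 0.15, limma adjusted p = 0.378). Lyz1 and Lyz2 share 16.1% and 15.4% of their 50-base words, so their reads cannot be fully told apart. The phagocyte oxidase makes superoxide, and its subunits among the members are Cybb, Cyba, Ncf1 and Ncf4. Cyba had 395, 307 and 417 in obese and 436, 374 and 321 in lean samples (log2 fold change -0.02, standard error 0.17). Ncf1 had 188, 163 and 226 in obese and 141, 153 and 142 in lean samples, the only oxidase subunit of the members without overlap (log2 fold change 0.39, standard error 0.18, limma adjusted p = 0.414). Of the 50-base words of Ncf1, 7.45% are shared, mainly with Gtf2ird2. Slc11a1, a metal transporter of the phagosome, had 137, 148 and 218 in obese and 141, 109 and 102 in lean samples, and overlapped. Cybb, Ncf4 and Lyz1 overlapped too.

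The 4 genes of the lipid-associated state all had overlapping groups, and their median log2 fold change was 0.27. Lgals3, the lectin galectin-3, had 854, 857 and 1142 normalized counts in obese samples 1, 2 and 3 and 945, 822 and 699.5 in lean samples 1, 2 and 3. Only obese sample 3 lay above all lean samples (log2 fold change 0.21, standard error 0.16, limma adjusted p = 0.653). Trem2, a lipid-sensing receptor, was picked after its values were seen. It had 63.3, 110.1 and 70.4 in obese and 84.0, 57.5 and 48.1 in lean samples (log2 fold change 0.35, standard error 0.30). Gpnmb, a glycoprotein of the lysosome, overlapped with a log2 fold change of 0.34 (standard error 0.28). Spp1, the secreted protein osteopontin, had 7.03, 14.3 and 5.68 in obese and 52.6, 2.05 and 4.37 in lean samples. Its single high value was in lean sample 1, and without that sample the log2 fold change was 1.21 in place of -0.03. DESeq2 on the reads gave -1.11 with all samples, and the obese mean was 0.457 times the lean mean.

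The 7 genes of leukocyte signalling and cytoskeleton had log2 fold changes from 0.33 to 0.67, all above 0, and none passed the test. Laptm5, a lysosomal protein of blood cells, had 858, 749 and 1109.7 normalized counts in obese samples 1, 2 and 3 and 736, 646 and 551 in lean samples 1, 2 and 3. The lowest obese value was just above the highest lean value (log2 fold change 0.48, standard error 0.17, limma adjusted p = 0.263). Plek, the platelet and leukocyte protein pleckstrin, had 128, 202 and 172 in obese and 109.7, 80.8 and 121 in lean samples, again without overlap (log2 fold change 0.67, standard error 0.23, limma adjusted p = 0.262). Spi1, which encodes PU.1, had 147, 143 and 141 in obese and 137, 110.2 and 91.8 in lean samples. Its obese samples were nearly equal and lay just above lean sample 1 (log2 fold change 0.36, standard error 0.20, limma adjusted p = 0.516). Lcp1, the actin-bundling protein L-plastin, had 686, 835 and 1025 in obese and 691, 702 and 597 in lean samples, and obese sample 1 fell within the lean range. Ptprc, the leukocyte antigen CD45, and the adaptors Tyrobp and Fcer1g overlapped, with log2 fold changes of 0.43, 0.33 and 0.38.

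Within each diet, the samples differed by larger ratios over the members than over all genes tested, and the genes were not matched for count level. The highest value of the 3 obese samples was a median of 1.49 times the lowest over the members and 1.34 times over all genes tested, and in lean samples these medians were 1.37 and 1.29. Of the 46 members tested, 20 had their highest value of the 6 samples in obese sample 3, 12 in obese sample 1 and 9 in obese sample 2. Lean sample 3 held the lowest value of 21 members. The median over members of the log2 value minus the lean mean was 0.41, 0.33 and 0.51 in obese samples 1, 2 and 3 and 0.13, 0.01 and -0.15 in lean samples 1, 2 and 3. The groups did not overlap in this measure, and obese sample 3 led in Fc receptors with 1.14 while it was lowest of the obese in resident macrophage genes with 0.14.

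**Figure D3:**
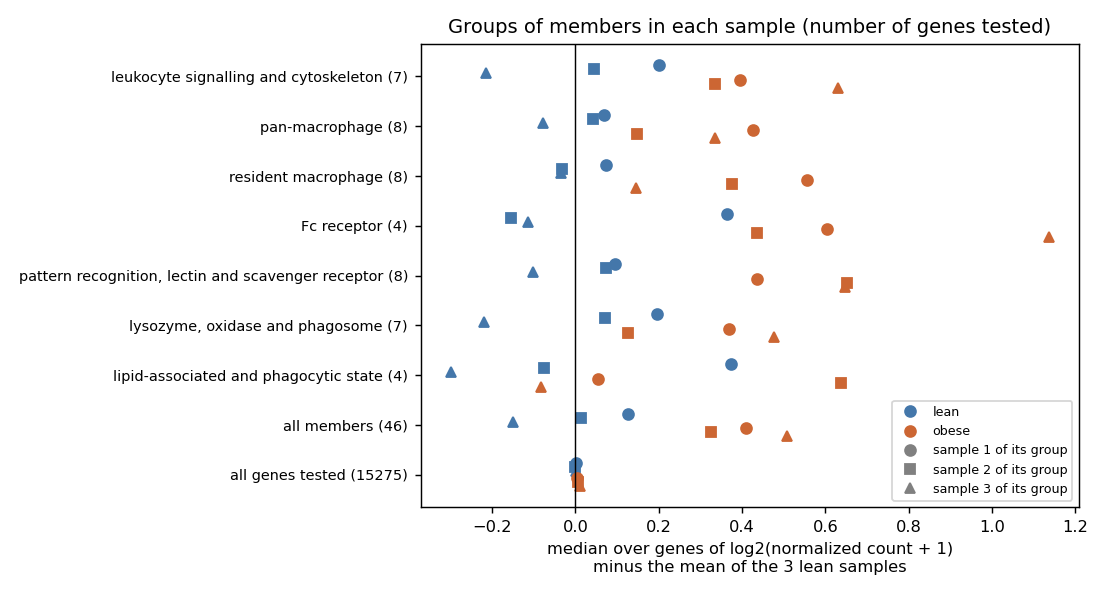
Median over the tested genes of each role group of log2(normalized count + 1) minus the mean of the 3 lean samples, for each sample. All 46 members and every group apart from the lysozyme and lipid-associated genes have the 3 obese samples to the right of the 3 lean samples, and over all genes tested the samples coincide near 0.

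Other genes of the pathways that these members take part in were taken from 8 lists of 79 genes, of which 72 were tested. Of these 2 rose (2.78%, against 0.484% of all genes tested) and none fell, and the median log2 fold change was 0.24. At an unadjusted p under 0.05, 19 were higher (26.4%) and 0 lower, against 6.66% and 5.55% of all genes. Cd300a, an inhibitory receptor that binds lipids of dying cells, had 113, 102 and 154 normalized counts in obese samples 1, 2 and 3 and 58.2, 26.7 and 27.3 in lean samples 1, 2 and 3 (log2 fold change 1.76, standard error 0.33, limma adjusted p = 0.0482). Plin2, which coats lipid droplets in many cell types, had 1089, 804 and 898 in obese and 576, 539 and 409 in lean samples (log2 fold change 0.88, standard error 0.16, limma adjusted p = 0.0458). In both genes every obese value lay above every lean value. Neither was called by edgeR with either scaling factor or by limma without a variance trend. The same held when obese sample 1 or 2 or lean sample 2 or 3 was left out. All of these fits called 0 pathway genes. At an unadjusted p under 0.05 they had 15 to 18 pathway genes higher (20.8% to 25% of those tested), against 4.69% to 6.84% of all genes. All 3 obese values lay above all 3 lean values for 22 of the 72 pathway genes tested (30.6%) and below them for 1. The shares of all genes were 8.86% and 9.17%. The genes with the smallest p in the other 6 lists were picked from these values, so a lack of overlap in them is no separate result. None of them passed the threshold, and 5 of them did not overlap. Among these were the transcription factor Cebpb with a log2 fold change of 1.16 (limma adjusted p = 0.0657), the cytokine receptor subunit Csf2rb with 0.87 (limma adjusted p = 0.103), the inhibitory receptor Pirb with 0.69 (limma adjusted p = 0.105) and the lipopolysaccharide receptor Tlr4 with 0.65 (limma adjusted p = 0.142). Syk, the kinase below Fcer1g and Tyrobp, had 1023, 1324 and 1448 in obese and 955, 941 and 949.8 in lean samples (log2 fold change 0.40, standard error 0.14, limma adjusted p = 0.263). In the list of 6 further oxidase genes none had an unadjusted p under 0.05. The ligands of Csf1r, Csf1 and Il34, had log2 fold changes of 0.00 and 0.17.

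Marker genes of other cell types were read in the same samples, and their part in the differences above was not tested. Of 7 monocyte markers 5 were tested and none passed the test, with a summed level of 2006, 2487 and 1868 normalized counts in obese samples 1, 2 and 3 and 1499, 1356 and 1265 in lean samples 1, 2 and 3. This sum did not overlap and came mainly from F13a1 and Vcan, genes that macrophages and fibroblasts also express, with log2 fold changes of 0.63 and 0.58. The defining monocyte genes Ccr2 and Ly6c2 had overlapping groups, with log2 fold changes of 0.34 and 0.38. Ccr2 had 77.4, 136 and 131 against 77.3, 73.2 and 119 normalized counts, and Ly6c2 43.2, 46.9 and 51.1 against 32.5, 52.0 and 27.3. Plac8 had the highest log2 fold change of the list, 1.00 (standard error 0.48, limma adjusted p = 0.450), and overlapped too. All 5 monocyte markers tested had a log2 fold change above 0, with a median of 0.58. Of the 10 neutrophil markers none reached the minimum for a test, and they summed to 46.2, 19.4 and 12.5 in obese and 6.72, 7.53 and 13.1 in lean samples, with Elane and Ngp at 0 in all 6.

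Endothelial markers were 6, all with a log2 fold change above 0 and none past the threshold, and their sums did not overlap, with 15372 to 16980.1 normalized counts in obese and 12934 to 13755 in lean samples. Pecam1, the adhesion molecule CD31 that leukocytes also carry, was nearest to the threshold with a log2 fold change of 0.57 (standard error 0.11, limma adjusted p = 0.0504). It also had the highest counts of these markers and so weighed most in the sums. The other endothelial markers had log2 fold changes from 0.04 to 0.18, and Cdh5, Kdr, Tek and Emcn had overlapping groups. All 7 atrial myocyte markers had a log2 fold change below 0, with a median of -0.40, none past the threshold, and Myl7 had 31186, 27168 and 58765 normalized counts in obese and 60190.2, 56346 and 58183 in lean samples. The sums of adipocyte markers, 1271 to 3765 normalized counts in obese and 573 to 2777 in lean samples, overlapped, as did those of dendritic cells, mast cells, lymphocytes, red blood cells, fibroblasts, mesothelium and proliferating cells. None of their genes passed the test. Sums of proliferation markers were highest in obese sample 3, with 248 normalized counts against 106 to 170.4 in the other samples.

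**Figure D4:**
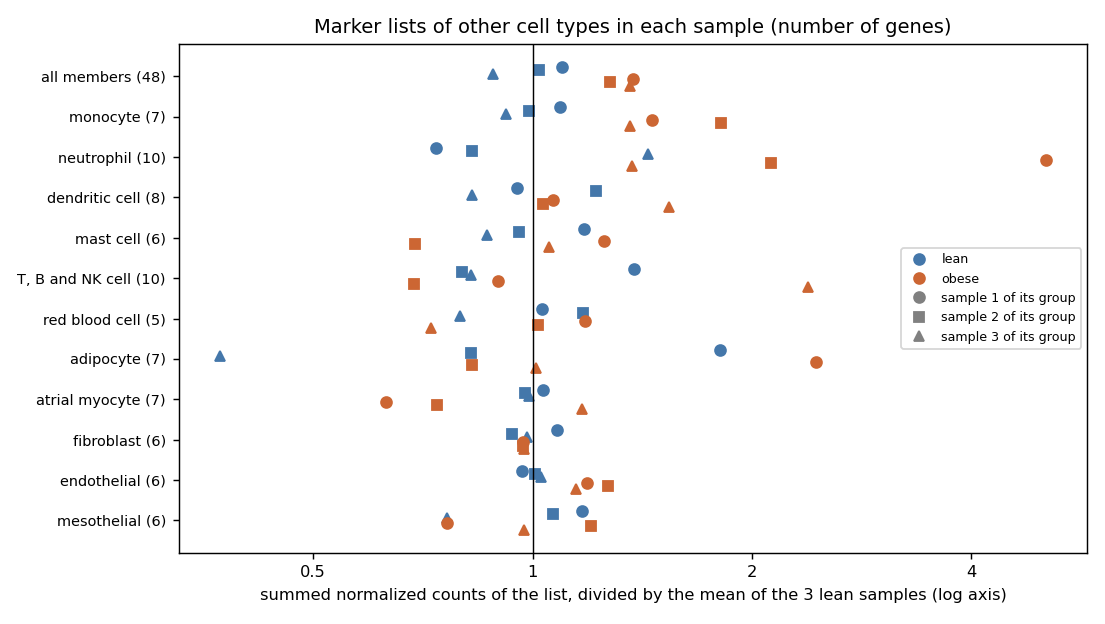
Summed normalized counts of the members and of marker lists of 11 other cell types in each sample, divided by the mean of the 3 lean samples, on a log axis. The sums of members, monocyte markers and endothelial markers are higher in every obese than in every lean sample, and the other sums overlap, with the myocyte sum low in obese samples 1 and 2 and not in obese sample 3.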

How the data were processed

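The 48 members and all gene lists were chosen with earlier results of these data known. Reads (single end, 50 bases) were aligned by the authors with STAR to GRCm38, uniquely mapped reads were assigned to Ensembl 79 genes with Salmon, and the deposited signal is the read count of a gene divided by a DESeq2 size factor per sample. All values were whole multiples of 1 read within 1e-06 and gave back the reads. The authors' own comparison columns, a log2 fold change with its standard error, p-value columns and 2 columns of scores (the Wald statistic and a ranking metric), were deposited too and were not used. Sample conditions came from the titles.

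The test of diet was that of limma (version 3.58.1, R 4.3.3), by lmFit and eBayes with a variance trend over all 6 samples without a covariate. It used log2(normalized count + 1) of each gene whose mean reached 10, with Benjamini-Hochberg adjustment over 15275 genes and a threshold of 0.05. Such fold changes understate those of low genes. Alternatives were edgeR 4.0.16, DESeq2 1.42.0, other scalings, filters and a pseudocount of 0.1, the replicate number as a block and each sample left out. Limma with and without a variance trend, edgeR with TMM and DESeq2 were tested on simulated data. Members were matched by name without regard to case, and of 2 rows of Clec7a that with reads was taken. The table's 1 row without a gene name held 0 reads. Values per sample are given for each member past the threshold, then by p until 24 members were given, for the most abundant of each role group and for those with a log2 fold change below 0. From the pathway lists the genes past the threshold or that with the smallest p are given, apart from 1 gene that is not reported here, and marker lists of other cell types are given mainly by their sums. Positions follow the deposited table, exon lengths, gene classes and shared 50-base words GENCODE, and promoters RefSeq. Whether reads were counted by strand is not given in the sources used here.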

Additional observations from a re-analysis of the deposited data

How the results depend on the processing

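The 5 members that rose stayed called under quantile normalization, without mitochondrial genes, under both other filters, with a pseudocount of 0.1 and in edgeR with RLE factors, and edgeR with TMM lost Siglec1 only. The median log2 fold change of the members ranged from 0.25 to 0.49 over all alternatives, and 0 members were called lower in each. Limma without a variance trend called 0 genes of all genes tested, 0 members higher and 0 genes of the pathway lists, and DESeq2 called 470 genes (292 higher, 178 lower), 9 members and 6 pathway genes, against 114, 74, 40, 5 and 2 in the reported fit. With each sample left out in turn the genes called ranged from 14 to 318 (10 to 202 higher, 4 to 116 lower). The members called higher ranged from 0 to 5 and the pathway genes called from 0 to 4. At an unadjusted p under 0.05, 12 to 18 members were higher in these fits, against 4.69% to 7.67% of all genes. From 0 to 1 members were lower, against 3.46% to 6.83% of all genes. Of pathway genes 1 was called after quantile normalization and 0 by edgeR with either factor. The lower Clec7a lost its unadjusted p under 0.05 without a variance trend and in edgeR. It also lost it without obese sample 1 and without lean sample 1, 2 or 3. In each of these fits 0 members were lower at that threshold, against 3.46% to 5.53% of all genes. The cause of these changes was not tested.

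The deviations of same-numbered samples from their group means correlated at 0.116, -0.027 and -0.0039. Those of samples with different numbers correlated at -0.147 to 0.160. With so few pairs, these values cannot decide whether samples of the same number were paired. With the number as a replicate block, 157 genes (113 higher, 44 lower), the same 5 members and 4 pathway genes were called.

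Over the alternative fits, 22 log2 fold changes of single members, from 10 members, had the opposite sign to the reported fit. None of these values passed the test. In the reported fit the log2 fold changes of these members lay between -0.21 and 0.25. With each sample left out in turn, the range was -0.078 to 0.037 for Csf1r, -0.32 to 0.12 for Aif1, -0.073 to 0.43 for Ms4a7, -0.25 to 0.35 for Vsig4, -0.27 to 0.55 for Fcgr1, -0.57 to 0.0058 for Cd33, -0.0040 to 0.30 for Cybb, -0.13 to 0.12 for Cyba, -0.16 to 0.81 for Ncf4 and -0.86 to 1.21 for Spp1. Vsig4 came to -0.0015 after quantile normalization and Spp1 to 0.074 with the pseudocount of 0.1. Members with few reads, such as Fcgr4 and Spp1, had large standard errors, 0.91 and 1.03.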
